A study of Mus musculus with 6 samples.

Results

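The genes described here encode the cathepsins, the lysosome-associated membrane proteins (LAMP) and the subunits of the vacuolar H+-ATPase (V-ATPase). They were chosen by gene symbol alone, as every entry of the deposited table named Cts plus a single letter, Lamp plus a digit, Atp6v or Atp6ap. The rule found 48 of the 21959 genes in the table, of which 18 were cathepsins, 4 were LAMP genes and 26 carried V-ATPase names. The 3 groups are read apart. The V-ATPase names comprised 13 genes of the V1 sector, 9 of the V0 sector, 3 named as accessory proteins and Atp6v1fnb, a gene named for lying next to Atp6v1f, which is not a subunit.

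The samples were whole thickness back skin from male C57BL/6 mice, shaved in telogen, the resting phase of the hair cycle, at the age of 7 weeks. In the vehicle group, 3 mice received 30% dipropylene glycol in water on the shaved skin once daily for 7 days. In the rebamipide group, 3 mice received 3% rebamipide, a gastroprotective drug, on the same schedule. All mice were otherwise untreated, no gene was altered, and each library came from bulk polyadenylated RNA of a single mouse, so p-values measure the spread between these mice. In such bulk samples, fewer cells of a type and less RNA per cell cannot be told apart.

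Lysosomes digest proteins, lipids and glycans that arrive by endocytosis and autophagy. The V-ATPase pumps protons into the lumen, with a cytosolic V1 sector that hydrolyses ATP and a membrane V0 sector through which protons pass. The acid lumen activates the cathepsins, a mixed set of cysteine, aspartic and serine proteases, while the heavily glycosylated LAMP proteins line the inner face of the lysosomal membrane. Many of these genes can be switched on together by TFEB, TFE3 and MITF, which bind the palindrome CACGTG at the core of the so-called CLEAR element.

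The libraries held 32709801 to 39915276 counts. Mitochondrially encoded genes made up 2.59% to 5.36% of each vehicle library but 13.28% to 21.96% of each rebamipide library, and libraries were therefore scaled with edgeR's TMM factors. After this scaling the median log2 fold change of all tested genes was -0.18, whereas it was -0.78 when libraries were scaled by total counts alone. Levels are given as FPKM, reads scaled to gene length and to the counts of the library, divided by the TMM factor, and only these are compared between genes. The third rebamipide library stood apart from its tissue label, with Krt14, a defining keratin of basal keratinocytes, at 0 counts and Krt5 at 4 counts. Fat markers moved with the treatment, since the summed CPM (counts scaled to library size, after TMM) of 9 adipocyte genes spanned 1602 to 4720 with vehicle and 12430 to 22320 with rebamipide.

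Among the 48 genes, 37 passed edgeR's expression filter and were tested. At an adjusted p under 0.05, 7 of them (18.9%) were higher in rebamipide-treated skin, against 14.1% of all 14875 genes tested, and 0 were lower, against 6.51%. The 7 genes were Ctsb, Ctsd, Ctsf, Ctsz, Atp6v0e, Atp6v1f and Atp6v1g2. On the lower side 6 genes (against 18.8% of all genes) had an unadjusted p under 0.05 with edgeR's quasi-likelihood test. DESeq2, the tool used by the study, called 9 higher (background 16.2%) and 3 lower (background 15.5%), adding Lamp1 and Atp6v0a2 to the higher calls and giving Ctsc, Ctse and Atp6v0d2 as lower. Every rebamipide library exceeded every vehicle library for 14 of the 37 genes (37.8%, against 24.5% of all genes), and the opposite held for 7 (18.9%, against 24%). With edgeR's p-values and the study's thresholds of unadjusted p under 0.05 and an absolute change over 1 on the log2 scale, 4 of the genes were higher (background 14.3%) and 3 were lower (background 14.5%).

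These counts depended on single libraries and on the scaling. Without the second vehicle library or the second rebamipide library edgeR called 0 of these genes, with 8 higher at an unadjusted p under 0.05 in either case (against 15.6% of all genes in both), while DESeq2 called 11 and 5 higher in the same subsets, against 16.3% and 11.9% of all genes. Without the first rebamipide library, edgeR called 13 higher and 3 lower, against backgrounds of 18.3% and 12.8%, and DESeq2 called 14 higher and 14 lower, against 22.1% and 25.9%. With total counts alone, edgeR called Ctsz higher (background 8.46%) and 6 genes lower (background 25.2%). The log2 fold changes of the 7 genes, 0.82 to 1.56 with TMM, were then 0.18 (Atp6v1f), 0.22 (Atp6v0e) and up to 0.93 (Atp6v1g2).

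**Figure D1:**
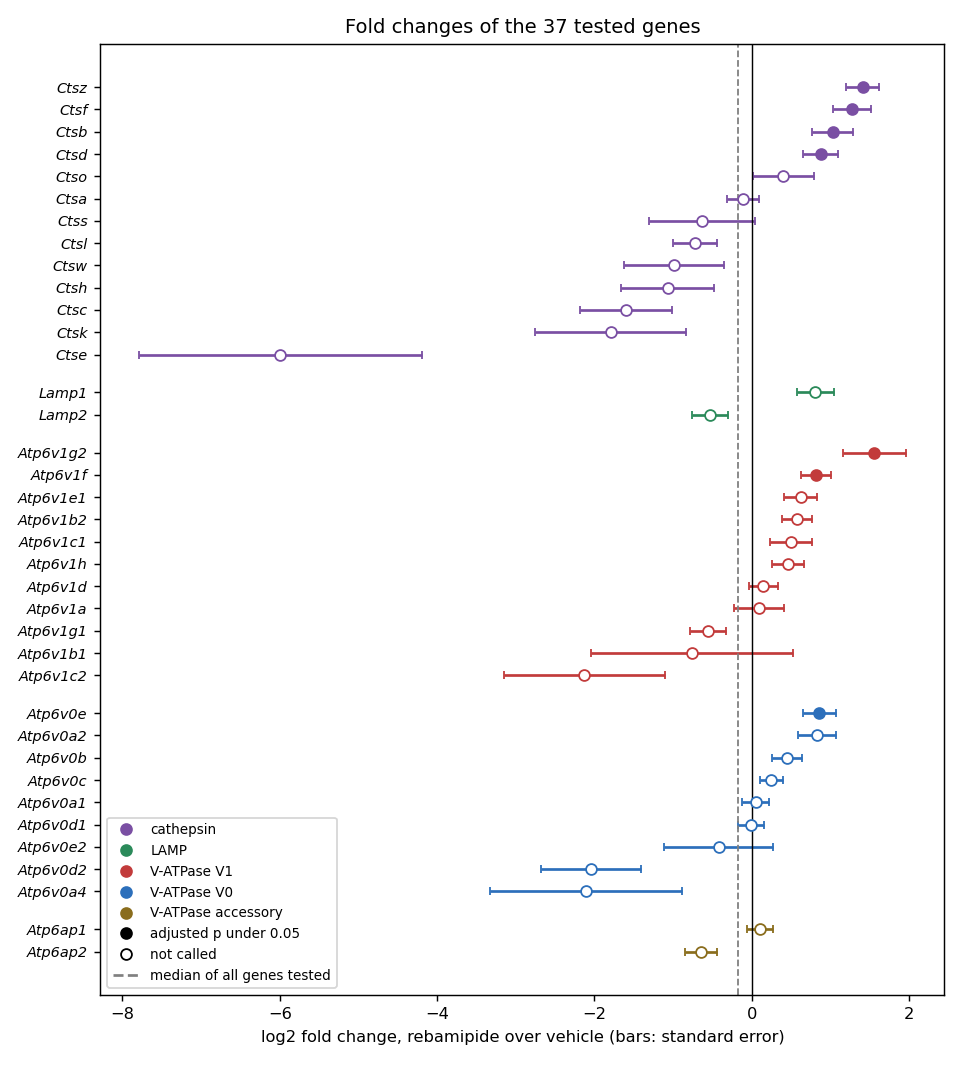
Log2 fold changes (rebamipide over vehicle, edgeR, horizontal axis) of the 37 tested genes, with bars of 1 standard error, filled points for an adjusted p under 0.05 and a dashed line at the median of all tested genes (-0.18). The filled points are 4 cathepsins, 2 V1 genes and 1 V0 gene, all on the right of zero, while Ctse lies farthest to the left with the widest bar among the cathepsins.

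Some cathepsins rose, others were low in some of the rebamipide libraries, and Ctsa and Ctso did neither. Ctsb, Ctsd, Ctsf and Ctsz rose 1.83-fold to 2.65-fold in group means. A negative log2 fold change was found for 8 of the 13 tested cathepsins, none of them called by edgeR. That share of 61.5% is close to the 56.9% of all genes. The median log2 fold change of the 13 was -0.64, below the median of all genes. Without single libraries it ranged from -0.90 to -0.21 (edgeR), the latter without the third rebamipide library, beside -0.14 for all genes. In the plot of cathepsin levels, Ctsc, Ctse, Ctsh, Ctsk, Ctss and the scarce Ctsw spread widely within the rebamipide group. Ctsa and Ctsl, which also had negative changes, did not.

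Ctsz encodes cathepsin Z (also called X), a cysteine carboxypeptidase that removes single residues from protein ends, and lies at chr2:174269286-174280832 on the minus strand (GRCm39). Normalized FPKM values were 53.8, 53.6 and 60.4 with vehicle and 119, 153 and 173 with rebamipide. The groups did not overlap, and the lowest treated mouse stood well above the highest vehicle mouse. The log2 fold change was 1.41 (edgeR adjusted p = 0.0118, standard error 0.21), and it stayed between 0.76 and 1.56 over 22 alternative settings, 20 of which called it higher. Ctsz was also the only one of the 48 genes that edgeR called without the third rebamipide library, and the only one called higher with total counts alone.

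Ctsf, at chr19:4905158-4910946 on the plus strand, encodes cathepsin F, a cysteine protease with an unusually long propeptide. It reached 5.10, 6.64 and 5.32 normalized FPKM with vehicle and 10.1, 14.3 and 16.9 with rebamipide. The groups did not overlap, although the level was far below that of the other called cathepsins. The log2 fold change was 1.28 (edgeR adjusted p = 0.0209, standard error 0.25), with 18 of 22 alternatives calling it higher.

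Ctsb and Ctsd had the highest levels of all cathepsins in the rebamipide group. Ctsb, at chr14:63359911-63383372 on the plus strand, encodes a cysteine protease that can cut within proteins and trim dipeptides from their ends. The vehicle mice had 173, 186 and 163 normalized FPKM and the treated mice 309, 359 and 399. The groups were clearly apart, with a log2 fold change of 1.03 (edgeR adjusted p = 0.0398, standard error 0.26). Ctsd, at chr7:141929648-141941775 on the minus strand, encodes the main aspartic protease of lysosomes. Its normalized FPKM was 130, 159 and 166 with vehicle and 242, 299 and 293 with rebamipide. The groups did not overlap for Ctsd either, and its log2 fold change was 0.88 (edgeR adjusted p = 0.0431, standard error 0.23). The adjusted p of Ctsb and Ctsd lay close to the threshold and reached 0.206 and 0.321 among the alternatives, in both cases with total counts alone, where their log2 fold changes were 0.40 and 0.25. DESeq2 called Ctsb, Ctsd, Ctsf and Ctsz higher in each of the 6 fits that left out a library, in which 11.9% to 22.1% of all genes were called higher.

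Markers of fat and vessels were higher in the same libraries as these 4 cathepsins. Of 9 adipocyte markers 7 were called higher by edgeR, of 8 brown adipocyte markers 6 and of 8 endothelial markers 5. The summed CPM of the brown adipocyte markers spanned 214 to 384 with vehicle, where Ucp1 was at 0 counts throughout, and 5040 to 12960 with rebamipide. Elovl3, which the sebaceous list also holds, made up most of the vehicle sum and went the other way, from 176, 129 and 238 to 82.3, 83.1 and 33.3 CPM (log2 fold change -1.45, adjusted p = 0.0575 with edgeR and 0.0119 with DESeq2). For the endothelial markers it spanned 278 to 674 and 1284 to 1868. Of 5 erythroid markers 3 were called higher, with a sum of 42.4 to 199.9 against 345.5 to 809, and of 6 slow muscle markers 4, with a sum of 2.07 to 13.5 against 290.1, 129 and 7.02. Of 7 tested fast muscle markers 0 were called by edgeR or DESeq2, and 0 had an unadjusted p under 0.05, with sums of 5047 to 25060 against 31960, 6816 and 257. The part of these cell types in the cathepsin values was not tested.

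**Figure D2:**
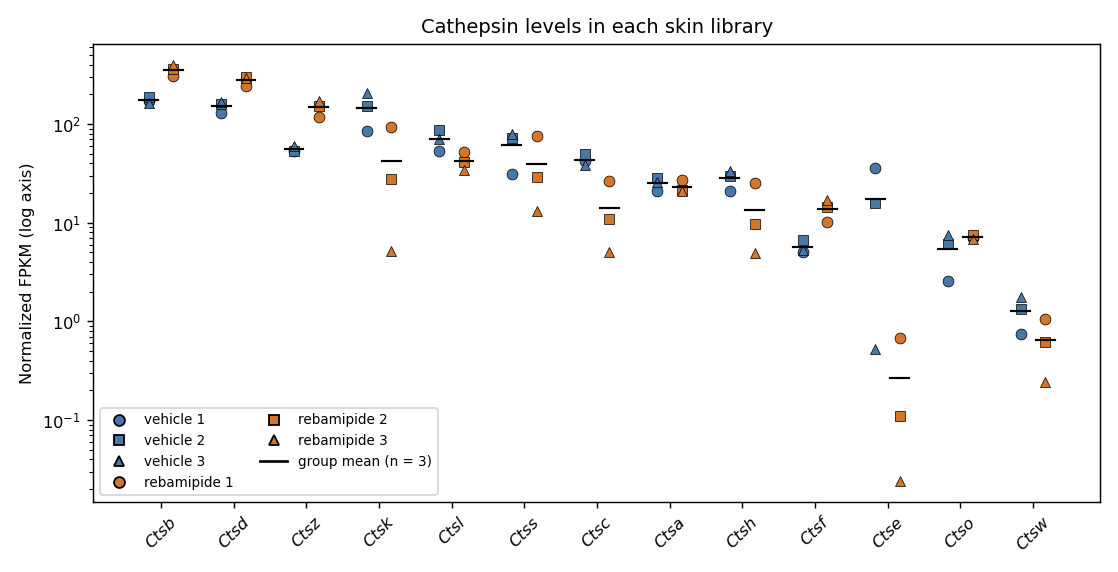
Normalized FPKM (vertical log axis) of the 13 tested cathepsins in each library, vehicle in blue and rebamipide in orange, with marker shapes for replicates and black bars for group means (n = 3). Ctsb, Ctsd, Ctsz and Ctsf show orange points above all blue points. Ctsk, Ctss, Ctsc, Ctsh, Ctse and Ctsw show orange points scattered over a wide range with the third rebamipide library lowest.

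Ctsk encodes cathepsin K, a protease able to cleave triple-helical collagen and best known from osteoclasts. Normalized FPKM values were 84.3, 151 and 206 with vehicle and 94.2, 27.8 and 5.17 with rebamipide. The first rebamipide library lay within the vehicle range and the other treated libraries far below it. The log2 fold change of -1.79 (standard error 0.96) did not pass (adjusted p = 0.211, edgeR). The summed CPM of 8 fibroblast markers, among them Col1a1 and Dcn, was 12350 to 18850 with vehicle and 15850, 3723 and 1979 with rebamipide. Of the 8, 0 were called by edgeR, while Dcn and Lum were lower at an unadjusted p under 0.05 and with DESeq2. Their part in the Ctsk values was not tested.

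Ctss encodes cathepsin S, which trims the invariant chain of class II antigen presentation, and its normalized FPKM was 31.3, 72.8 and 78.7 in the vehicle group against 75.5, 29.0 and 13.2 in the rebamipide group. The first treated library was near the top of the vehicle range and the others were lower. Ctss had a log2 fold change of -0.64 (edgeR adjusted p = 0.504, standard error 0.67). Ctsh, an aminopeptidase, overlapped in the same manner, with 21.2, 30.1 and 33.4 against 25.6, 9.76 and 4.95 normalized FPKM and a log2 fold change of -1.07 (adjusted p = 0.222, edgeR). The summed CPM of 12 macrophage markers was 615, 1245 and 1367 with vehicle and 1263, 539 and 349 with rebamipide. For 6 genes of antigen-presenting cells it was 569, 1402 and 1712 against 1183, 632 and 416. Of these 18 markers edgeR called 0, while Mrc1 was lower at an unadjusted p under 0.05 and with DESeq2. Cd207 alone was at 0 in a library, the third of the rebamipide group. Their part in the Ctss and Ctsh values was not tested.

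Ctsc encodes dipeptidyl peptidase 1, which activates serine proteases of leukocyte granules. It reached 42.1, 49.3 and 38.2 normalized FPKM with vehicle and 26.7, 11.04 and 5.08 with rebamipide. The groups did not overlap, but the first treated library stood several times above the third library. Ctsc had a log2 fold change of -1.60 (standard error 0.59), which edgeR did not call (adjusted p = 0.0966) and DESeq2 did (adjusted p = 0.0301). Without the first rebamipide library edgeR called both Ctsc and Ctsh lower. The summed CPM of 9 neutrophil and mast cell markers was 155, 180 and 312 with vehicle and 161, 56.4 and 41.8 with rebamipide. Of the 7 tested, S100a8 was called lower by edgeR and DESeq2 and Cpa3 by DESeq2 alone, and their part in the Ctsc values was not tested.

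Ctsl encodes cathepsin L, an endopeptidase active in keratinocytes among other cells. Its normalized FPKM was 53.9, 86.5 and 70.1 with vehicle and 52.4, 40.9 and 34.4 with rebamipide, without overlap but with neighbours close to each other. Ctsl had a log2 fold change of -0.72 (edgeR adjusted p = 0.111, standard error 0.28). Ctse encodes cathepsin E, an aspartic protease of endosomes found in epithelia and immune cells, and its normalized FPKM of 35.9, 16.0 and 0.526 in the vehicle group differed widely between mice. The rebamipide libraries held 0.675, 0.111 and 0.0241, so the third vehicle library overlapped with them. The log2 fold change of -5.99 (edgeR adjusted p = 0.061, standard error 1.80) rested on the first and second vehicle libraries, which also held most of the hair follicle signal. The summed CPM of 7 hair follicle markers was 14600, 6614 and 160 with vehicle and 806, 0.741 and 0.229 with rebamipide, and their part in the Ctse values was not tested. For 7 basal keratinocyte markers it was 2513 to 4053 against 1183, 725 and 144, and the part of these in the Ctsl values was not tested.

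**Figure D3:**
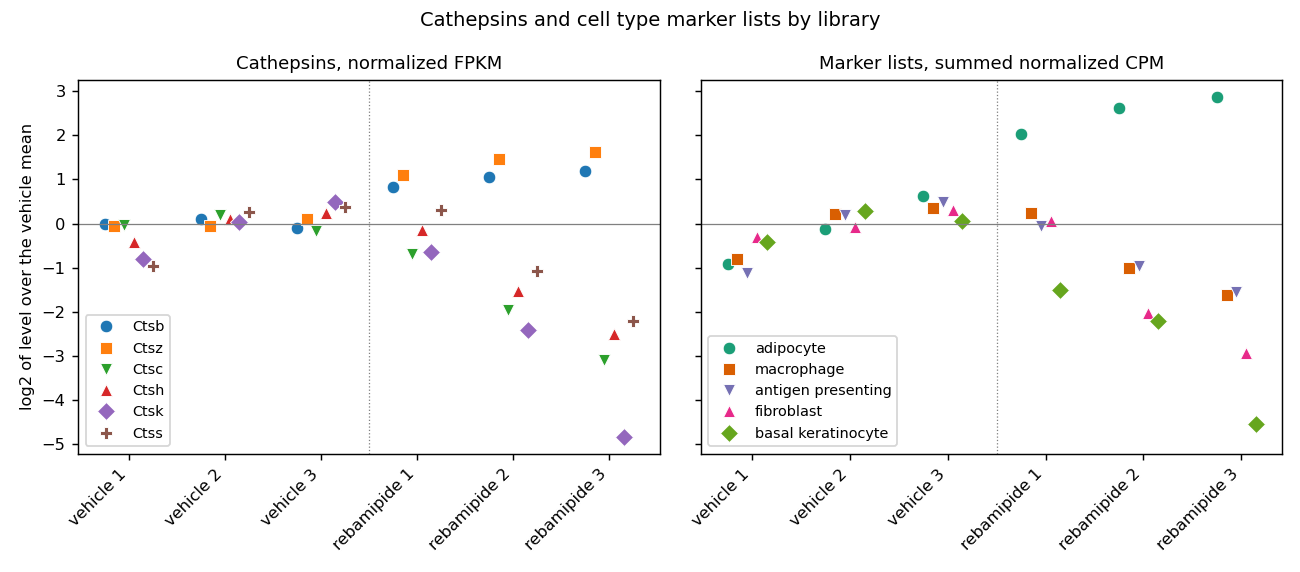
Left, log2 of normalized FPKM over the vehicle mean for 6 cathepsins in each library; right, the same for the summed normalized CPM of 5 marker lists, with small sideways offsets so that points stay visible. Ctsk, Ctss, Ctsh and Ctsc are lowest in the third rebamipide library, as are the fibroblast, macrophage, antigen-presenting and basal keratinocyte lists, while Ctsb, Ctsz and the adipocyte list are above the vehicle mean in every rebamipide library.

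The remaining cathepsins were not called or barely detected. Ctsa, a serine carboxypeptidase that also shields lysosomal beta-galactosidase and neuraminidase, had a log2 fold change of -0.11 (adjusted p = 0.708, edgeR), and Ctso, a cysteine protease with few known substrates, had 0.40 (adjusted p = 0.465, edgeR), or -0.20 with total counts alone. Ctsw, known from cytotoxic lymphocytes, stayed under 2 normalized FPKM and overlapped between the groups. Ctsg, a serine protease of neutrophil granules, reached 18 counts in the third vehicle library and at most 2 in any other, and was not tested. Ctsj, Ctsm, Ctsq and Ctsr, known from the rodent placenta, had 0 counts in all 6 libraries, which allows up to 3 counts per library by counting error.

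Cathepsin transcripts were also compared within each library, as shares of the summed FPKM of all 18 genes, a measure that does not depend on scaling between libraries and that was chosen after the values were seen. Ctsb, Ctsd, Ctsf and Ctsz together made up 55.3%, 47.9% and 46.0% of the sum in the vehicle libraries and 68.7%, 84.7% and 90.7% in the rebamipide libraries. Ctsc, Ctse, Ctsh, Ctsk and Ctss together made up 32.8%, 37.7% and 41.6% against 22.5%, 7.99% and 2.92%. The members of each set were taken for their direction, which fixes that the sets separate the groups, and the first rebamipide library lay nearest to the vehicle libraries in both. Shares of one sum constrain each other, so part of any increase mirrors the decrease of other members. Vehicle libraries summed to 786 ± 113 normalized FPKM (SD, n = 3) and rebamipide libraries to 979 ± 10.2. Unlike the shares, these sums depend on the scaling, with TMM factors of 1.21 to 1.28 for vehicle and 0.746 to 0.929 for rebamipide. Without division by these factors, the rebamipide mean was below the vehicle mean.

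**Figure D4:**
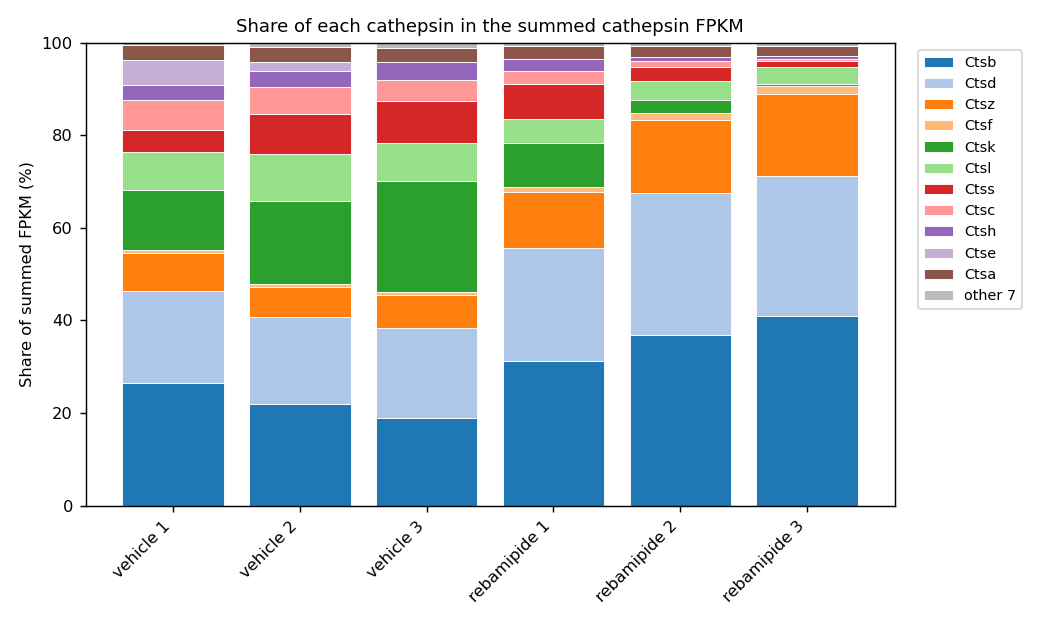
Share (%) of each cathepsin in the summed cathepsin FPKM of each library, as stacked bars. The blue and orange segments of Ctsb, Ctsd, Ctsz and Ctsf fill 46.0% to 55.3% of the vehicle bars and 68.7% to 90.7% of the rebamipide bars, and the Ctsk segment is widest in the vehicle libraries.

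The LAMP group came down to a pair of abundant genes that pointed in opposite directions. Lamp1 and Lamp2 encode the major glycoproteins of the lysosomal membrane, and Lamp2 gives rise to an isoform required for chaperone-mediated autophagy. Lamp1, at chr8:13209161-13225338 on the plus strand, had 165, 190 and 215 normalized FPKM in the vehicle libraries and 296, 353 and 345 in the rebamipide libraries. All treated libraries exceeded all vehicle libraries, yet the log2 fold change of 0.81 (standard error 0.24) missed the threshold with edgeR (adjusted p = 0.057). DESeq2 called it (adjusted p = 0.00932), as did edgeR without the first rebamipide library. With total counts alone its log2 fold change was 0.18 (adjusted p = 0.489, edgeR).

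Lamp2 had 43.8, 42.8 and 42.7 normalized FPKM in the vehicle libraries and 23.5, 35.1 and 30.7 in the rebamipide libraries. The vehicle libraries were nearly identical and the treated ones all lower, without overlap. Its log2 fold change of -0.53 (standard error 0.23) was not called (adjusted p = 0.136, edgeR). With total counts alone, where the median of all genes was -0.78, Lamp2 was called lower with a log2 fold change of -1.17 (adjusted p = 0.0133, edgeR). Lamp3, known from mature dendritic cells, had 12, 11 and 0 counts in the vehicle libraries and 0 in each rebamipide library, and Lamp5, known from neurons and plasmacytoid dendritic cells, had 2 counts in the whole series. Neither was tested.

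Among the V-ATPase genes, 3 of the 22 tested were higher (13.6%, against 14.1% of all genes), which is close to the background. The median log2 fold change was 0.13, and it was -0.49 with total counts alone. The whole group summed to 530 ± 26.3 normalized FPKM with vehicle and 572 ± 36.8 with rebamipide (SD, n = 3). Without division by the TMM factors, the sum of every rebamipide library was below that of every vehicle library. By sector, 2 of 11 V1 genes and 1 of 9 V0 genes were called, and 0 of 2 tested accessory genes, of which Atp6ap2 had an unadjusted p under 0.05. Of the 22 genes, 9 lay above the vehicle range in all treated libraries (against 24.5% of all genes), 4 lay below it in all of them (against 24%) and 9 overlapped.

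In the V1 sector, Atp6v1f (chr6:29467717-29470511, plus strand) encodes subunit F of the central stalk. The vehicle mice had 47.9, 42.7 and 42.0 normalized FPKM and the treated mice 64.1, 81.8 and 87.6. The groups did not overlap, and the log2 fold change was 0.82 (edgeR adjusted p = 0.031, standard error 0.19). In the FPKM as deposited, without TMM, they overlapped, with 61.1, 52.7 and 50.8 against 59.5, 61.1 and 66.1. Atp6v1g2 (chr17:35452636-35457743, plus strand) encodes a form of peripheral stalk subunit G known from neurons. Its normalized FPKM was 0.303, 0.607 and 0.503 with vehicle and 1.14, 1.49 and 1.54 with rebamipide. This was a low level without overlap, with a log2 fold change of 1.56 (edgeR adjusted p = 0.0427, standard error 0.40) resting on 38 to 101 counts per library. Calls in 13 of 22 alternatives for Atp6v1f and 13 of 21 for Atp6v1g2 were in the same direction.

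The ATP-hydrolysing head of V1 was not called. Atp6v1a, the catalytic subunit A, had 21.3 ± 2.26 normalized FPKM with vehicle and 22.7 ± 8.65 with rebamipide (SD, n = 3). Atp6v1b2, the widespread form of subunit B, went from 28.2 ± 3.15 to 42.1 ± 4.18, and Atp6v1e1, the widespread form of stalk subunit E, from 29.9 ± 1.30 to 46.0 ± 8.87. Both were without overlap but not called (adjusted p = 0.0796 and 0.0791, edgeR), and both turned to -0.06 and -0.01 on the log2 scale with total counts alone. Atp6v1g1, the abundant form of subunit G, held 149, 120 and 108 normalized FPKM in the vehicle libraries and 105, 77.6 and 73.0 in the rebamipide libraries. It had the highest mean of all V-ATPase genes over the 6 libraries, although Atp6v1f exceeded it in the second and the third rebamipide library, and was lower in every treated library, with a log2 fold change of -0.56 that was not called (adjusted p = 0.124, edgeR). Atp6v1d and Atp6v1h, a stalk and a regulatory subunit, were not called either.

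In the V0 sector, Atp6v0e (chr17:26882205-26918621, plus strand) encodes the small membrane subunit e. Normalized FPKM values were 15.8, 17.1 and 18.6 with vehicle and 23.9, 35.0 and 34.5 with rebamipide. The groups were apart, with a log2 fold change of 0.86 (edgeR adjusted p = 0.0375, standard error 0.21) and a call in 12 of 22 alternatives. In the FPKM as deposited, they overlapped, with 20.1, 21.1 and 22.5 against 22.2, 26.1 and 26.0. The proton-carrying ring was not called, as Atp6v0c, its main subunit, and Atp6v0b had log2 fold changes of 0.25 and 0.45 (adjusted p = 0.247 and 0.131, edgeR). Both lay above the vehicle range in all treated libraries, but their changes turned to -0.37 and -0.18 with total counts alone. Atp6v0d1, the widespread form of subunit d that links the ring to the stalk, had -0.01 (adjusted p = 0.979, edgeR), and its sign changed in 4 of 22 alternatives.

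Of the accessory proteins, Atp6ap1, also called Ac45, was not called, at 51.3 ± 1.71 and 55.0 ± 3.57 normalized FPKM (SD, n = 3). Atp6ap2, the prorenin receptor, held 34.6, 27.6 and 26.9 with vehicle and 16.1, 22.1 and 18.8 with rebamipide. All treated libraries were lower, with a log2 fold change of -0.65 (standard error 0.20) that edgeR did not call (adjusted p = 0.0666). Atp6ap1l, Atp6v1e2, Atp6v1g3 and Atp6v1fnb had at most 4 counts in any library and were not tested.

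Several V-ATPase subunits have alternative forms encoded by separate genes, and the share of each form in the FPKM of its subunit was compared with a two-sided exact permutation test over the 6 libraries. With 3 mice per group this test cannot give a p below 0.1, and over the 9 shares tested the smallest adjusted value was 0.225. For subunit a, which steers the pump to its membrane, the fourth gene Tcirg1 was included to complete the sum. The share of Atp6v0a2, the form of Golgi and endosomes, was 41.0%, 36.2% and 36.7% in the vehicle libraries and 45.8%, 60.6% and 58.5% in the rebamipide libraries (exact p = 0.1). The share of Atp6v0a4, the form known from kidney and other acid-secreting epithelia, was 7.78%, 14.2% and 19.4% against 5.25%, 2.83% and 0.0391% (exact p = 0.1). Neither overlapped between the groups. The shares of Atp6v0a1 (37.8% ± 3.94 against 32.3% ± 4.66, SD, n = 3) and Tcirg1 (9.84% to 11.1% against 8.64% to 11.8%) overlapped (exact p = 0.2 and 0.7).

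On their own scale, Atp6v0a2 had 13.5, 10.6 and 11.3 normalized FPKM against 15.6, 24.5 and 22.95, which edgeR did not call (log2 fold change 0.83, adjusted p = 0.0536) and DESeq2 did (adjusted p = 0.0325). Atp6v0a4 had 2.55, 4.18 and 5.99 against 1.78, 1.14 and 0.0154, a log2 fold change of -2.11 (edgeR adjusted p = 0.238, standard error 1.22). The third rebamipide library, which lacked Krt14, held 2 counts of Atp6v0a4.

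Other forms showed the same low values in that library. Atp6v1c2, a form of subunit C found in epithelia such as kidney, lung and skin, had 28.5%, 72.0% and 75.1% of the subunit C FPKM in the vehicle libraries and 37.8%, 25.0% and 2.97% in the rebamipide libraries. The first vehicle library was low as well, so the groups overlapped (exact p = 0.2). Its level overlapped too, at 17.9 ± 11.4 against 4.10 ± 3.16 normalized FPKM (SD, n = 3), while the widespread form Atp6v1c1 had 7.87 to 12.1 against 10.1 to 17.1. The share of Atp6v0e2 in subunit e was 20.9%, 28.6% and 28.2% against 28.0%, 8.01% and 3.76% (exact p = 0.2). The summed CPM of 8 suprabasal keratinocyte markers was 1418, 5317 and 6502 with vehicle and 1626, 1106 and 5.61 with rebamipide. It was low where Atp6v1c2 was low, in the first vehicle library and in the treated ones, and its part in these values was not tested.

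The scarce forms made up little of their subunits. Atp6v0d2, known from osteoclasts and macrophages, took 1.92% ± 0.972 of subunit d with vehicle and 0.485% ± 0.185 with rebamipide (SD, n = 3), without overlap (exact p = 0.1). Its log2 fold change of -2.05 (standard error 0.63) was called by DESeq2 (adjusted p = 0.00909) and not by edgeR (adjusted p = 0.0654). Atp6v1g2 took 0.389% ± 0.162 of subunit G with vehicle and 1.67% ± 0.526 with rebamipide (exact p = 0.1), so Atp6v1g1 remained the predominant form. Atp6v1b1, the kidney form of subunit B, took under 1% in every library (exact p = 0.3).

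**Figure D5:**
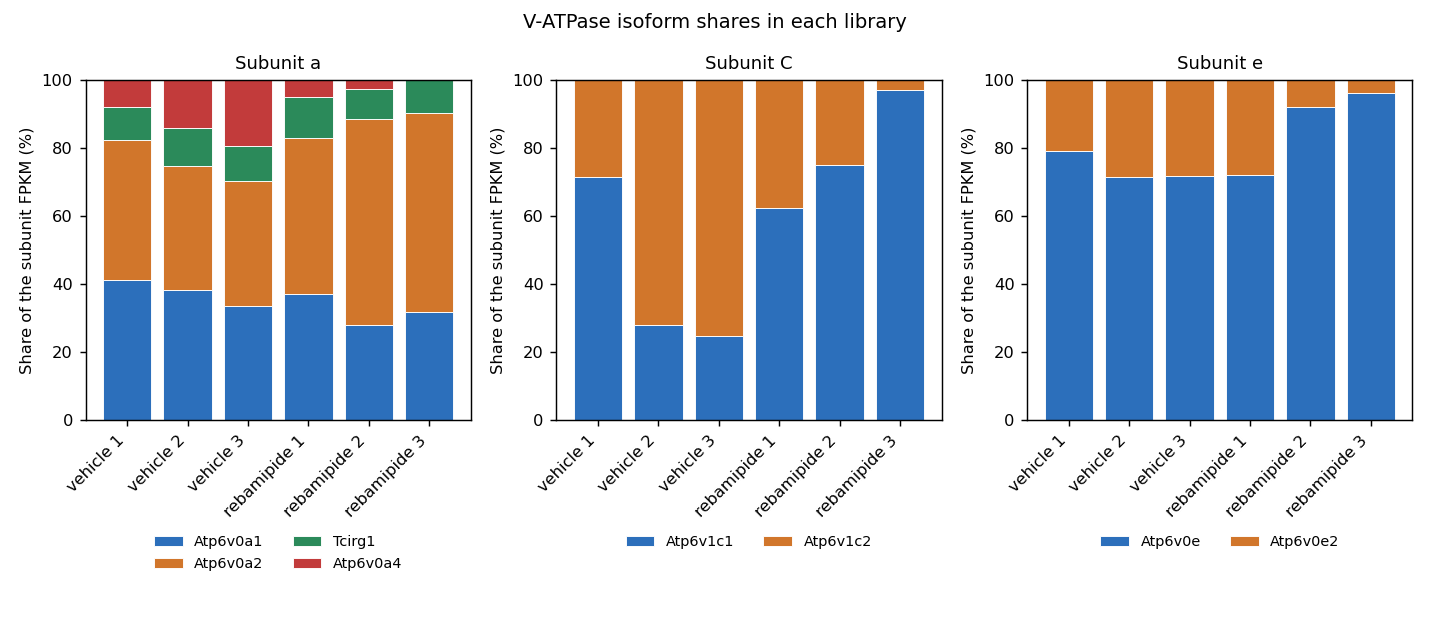
Share (%) of each gene in the FPKM of V-ATPase subunits a, C and e in each library, as stacked bars. Atp6v0a2 takes 36.2% to 41.0% of subunit a with vehicle and 45.8% to 60.6% with rebamipide, whereas Atp6v1c2 and Atp6v0e2 are smallest in the third rebamipide library, with 2.97% and 3.76%.

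Since many genes of the 3 groups are known targets of TFEB-family factors, their RefSeq promoter windows (GRCm38.p6, 250 bases before to 50 after the gene start) were searched for CACGTG, which reads the same on both strands. A window was present for 37 of the 48 genes, and 11 had none (Atp6ap1l, Atp6v0a2, Atp6v0d2, Atp6v1b2, Atp6v1c1, Atp6v1g1, Atp6v1h, Ctsb, Ctse, Ctsh and Ctsw). CACGTG occurred in 9 of the 37 (24.3%), against 8.09% of the 27025 genes with a window and 7.15% of all windows. The longer palindrome TCACGTGA, which contains it, occurred in 5 of the 37 (13.5%), against 1.12% of genes, in Ctsa, Ctsd, Atp6v0d1, Atp6v0e and Atp6v1a. A match is a string of letters and shows no binding.

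The 250 bases before the start of 3 genes are printed because they span the range, from 4 matches in Lamp1 and 2 in Ctsd to none in Ctsz, the cathepsin with the largest rise. Each runs 5′ to 3′ on the strand of the gene, with CACGTG in capitals. Lamp1 is at chr8:13158911-13159160 on the plus strand, with matches beginning at -61, -45, -28 and -15 from the gene start. Ctsd is at chr7:142387828-142388077 on the minus strand, with matches at -245 and -98, and Ctsz is at chr2:174439040-174439289 on the minus strand.
Lamp1: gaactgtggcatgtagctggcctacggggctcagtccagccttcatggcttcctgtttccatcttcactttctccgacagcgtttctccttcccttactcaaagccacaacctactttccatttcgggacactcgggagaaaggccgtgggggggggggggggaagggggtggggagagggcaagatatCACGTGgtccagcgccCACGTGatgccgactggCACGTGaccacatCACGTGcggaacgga
Ctsd: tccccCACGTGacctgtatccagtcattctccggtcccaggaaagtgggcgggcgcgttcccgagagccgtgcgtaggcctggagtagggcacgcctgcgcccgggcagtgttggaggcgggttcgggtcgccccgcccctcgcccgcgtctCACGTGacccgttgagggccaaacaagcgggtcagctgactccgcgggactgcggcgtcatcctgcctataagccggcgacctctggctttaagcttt
Ctsz: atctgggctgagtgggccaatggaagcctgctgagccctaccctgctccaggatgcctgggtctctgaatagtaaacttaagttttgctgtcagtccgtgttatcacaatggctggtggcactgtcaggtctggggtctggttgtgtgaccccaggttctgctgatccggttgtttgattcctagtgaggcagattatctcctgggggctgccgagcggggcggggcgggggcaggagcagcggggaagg

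The matches of 4 further genes are shown with their flanks, 30 bases each on the strand of the gene, to set genes called higher beside genes that were not. Atp6v0e (chr17:26676387-26676416, plus strand) and Ctsf (chr19:4855074-4855103, plus strand) were called higher, whereas Atp6v0d1 (chr8:105566050-105566079, minus strand) and Atp6v1a (chr16:44139373-44139402, minus strand) were not.
Atp6v0e: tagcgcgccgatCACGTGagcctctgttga
Ctsf: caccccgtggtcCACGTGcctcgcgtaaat
Atp6v0d1: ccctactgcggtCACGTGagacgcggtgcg
Atp6v1a: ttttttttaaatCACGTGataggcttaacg

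The motif occurred in genes with and without a call. Of the 7 genes called higher by edgeR, 6 had a window and 3 of these held CACGTG (Ctsd, Ctsf and Atp6v0e). Of the 30 tested genes without a call, 21 had a window and 6 held the motif (Lamp1, Ctsa, Ctsl, Atp6v0b, Atp6v0d1 and Atp6v1a). None of the 10 windows of untested genes held it. These counts are too small to compare and are given as a description.

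The factors that bind this motif were themselves in the table. Tfeb had at most 16.4 CPM with vehicle and 16.7 to 21.9 CPM with rebamipide, with a log2 fold change of 0.38 that was not called (adjusted p = 0.266, edgeR). Tfe3 had a log2 fold change of 0.32 (adjusted p = 0.178, edgeR). Mitf fell, from 43.4, 38.4 and 24.3 CPM to 8.83, 11.2 and 8.55 (edgeR log2 fold change -1.89 with a standard error of 0.29 and adjusted p = 0.0125), and Flcn, a GTPase-activating protein that governs the nuclear entry of TFEB and TFE3, rose with a log2 fold change of 1.84 (adjusted p = 0.0216, edgeR). These were the only calls among 8 genes of this list, against 14.1% of all genes higher and 6.51% lower. Tfec, also in the list, was lower in every treated library but not called (log2 fold change -1.16, adjusted p = 0.116, edgeR). Mitf is also the lineage factor of pigment cells.

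Further lysosomal genes were read from 7 lists, which held 106 genes in the table, 101 of them tested. At an adjusted p under 0.05 with edgeR, 22 of the 101 (21.8%, against 14.1% of all genes) were higher and 2 (1.98%, against 6.51%) were lower, with a median log2 fold change of 0.38 beside -0.18 for all genes. Of 35 lysosomal hydrolases and their cofactors, 9 were higher and 1 was lower. Lipa, the acid lipase of lysosomes, rose from 28.5, 45.8 and 47.0 CPM to 130, 188 and 180 (log2 fold change 2.04, adjusted p = 0.0103, edgeR). Psap, the precursor of the saposins, had a log2 fold change of 1.40.

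Of 20 lysosomal membrane genes 3 were higher, near the 14.1% of all genes, namely Abcb9, a peptide transporter (log2 fold change 2.25, adjusted p = 0.0101, edgeR), Hgsnat and Tmem192. Of 6 genes for sorting to lysosomes 1 was higher, also near that share, the receptor Sort1, at 1.37 (adjusted p = 0.0203, edgeR). Of 12 tested partners of V-ATPase assembly 0 were called by edgeR or DESeq2, with Rogdi higher and Dmxl2 lower at an unadjusted p under 0.05 by edgeR, and Tcirg1 in that list had a log2 fold change of 0.22. Of 12 genes of the Ragulator and mTORC1 machinery, which docks on lysosomes and contacts the V-ATPase, 8 were higher, among them Mtor (1.98, adjusted p = 0.0125, edgeR), Rptor (0.96) and Lamtor1 (0.90). Of 8 tested cathepsin inhibitors edgeR called 0, although DESeq2 called Cst3, which had an unadjusted p under 0.05 by edgeR. Cst3, the secreted cystatin C, had 195, 327 and 409 CPM in the vehicle libraries and 632, 564 and 676 in the rebamipide libraries (log2 fold change 1.01, adjusted p = 0.0706, edgeR). With total counts alone, the 101 genes gave 6 higher and 13 lower calls, against 8.46% and 25.2% of all genes, and without the third rebamipide library edgeR gave 4 higher, against 6.6%. Without the second vehicle or the second rebamipide library edgeR gave 0, with 28 higher at an unadjusted p under 0.05 in either case (against 15.6% of all genes in both), while DESeq2 gave 31 and 19 higher, against 16.3% and 11.9%.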

How the data were processed

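The deposited table gives, for each gene, raw read counts and FPKM values in 6 skin libraries. Per the submitters' processing notes, fastp 0.22.0, HISAT2 2.1.0, HTSeq 0.9.1 and genome build GRCm39 were used. The counts, as the authors deposited them, are raw whole numbers, and strand handling is not given in the sources used here. The FPKM deposited by the authors are the counts scaled by the length of each gene and the total of each library. Positions of genes are those of the table, while promoter sequences and their coordinates come from RefSeq on GRCm38.p6, and the builds were not mixed.

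Groups were tested with edgeR 4.0.16 in R 4.3.3 (TMM, filterByExpr, quasi-likelihood test, Benjamini-Hochberg adjustment over all genes tested). Replicates differed by far more than sampling noise. The alternatives were DESeq2 1.42.0, limma-voom and limma-trend on log2(FPKM + 1) with limma 3.58.1, other scalings and filters, a replicate block, and each library left out in turn with edgeR and DESeq2. Each kind of fit across genes was checked on simulated counts. The members and all gene lists were chosen with earlier results of these data known. Named were the members called, the LAMP genes, the 6 cathepsins and 8 V-ATPase genes with the highest mean level, all forms of V-ATPase subunits, and up to 3 genes per other list by p. The other cathepsins, the ring, stalk and accessory V-ATPase genes outside this rule, Tfeb, Tfe3 and Tcirg1 were chosen once values had been seen. The table holds no columns of the authors' own comparisons. Some genes of the lysosomal hydrolase list are not reported here by name.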

Additional observations from a re-analysis of the deposited data

How the results depend on the processing

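For the 7 genes called higher (Ctsb, Ctsd, Ctsf, Ctsz, Atp6v0e, Atp6v1f and Atp6v1g2), the direction was the same in every alternative run, 21 for Atp6v1g2 and 22 for each of the others, whereas the calls were not. With libraries scaled by total counts alone, 1 cathepsin was higher and 2 were lower, 1 LAMP gene was lower, and 0 V-ATPase genes were higher and 3 lower. The medians of the cathepsins, LAMP and V-ATPase genes were then -1.15, -0.50 and -0.49, and 6 genes of the other lysosome lists were higher and 13 lower. With limma on log2(FPKM + 1), 2 cathepsins were higher and 4 lower, 1 LAMP gene was lower, 0 V-ATPase genes were higher and 5 lower (10.9% and 34.6% of all genes), and the medians of LAMP and V-ATPase genes were -0.48 and -0.46. Under these 2 settings the sign changed for Atp6ap1 (-0.51 and -0.51), Atp6v0a1 (-0.57 and -0.52), Atp6v1b2 (-0.056 and -0.045), Atp6v1c1 (-0.15 and -0.13) and Atp6v1e1 (-0.012 and -0.014), settings that also lowered the median of all genes. With total counts alone 11 members changed sign in all, the others being Atp6v0b (-0.18), Atp6v0c (-0.37), Atp6v1a (-0.57), Atp6v1d (-0.48), Atp6v1h (-0.18) and Ctso (-0.20). Atp6v0a1 was also at -0.015 with upper quartile scaling, at -0.023 with at least 10 counts in every library, at -0.025 to 0.142 without each library in turn (edgeR) and at -0.015 without vehicle library 3 (DESeq2). Without each library in turn, Atp6v0d1 ranged from -0.063 to 0.063 and Atp6v0e2 from -1.47 to 0.024 with edgeR. DESeq2 gave Atp6v0d1 0.076 without vehicle library 1 and 0.066 without rebamipide library 3, where it gave Atp6v0e2 0.045.

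With DESeq2, 2 cathepsins were lower, 1 LAMP gene was higher and 1 V-ATPase gene was lower. With limma-voom, 1 LAMP gene was higher (14.4% of all genes). Upper quartile scaling gave 1 V-ATPase gene lower (7.93% of all genes), the stricter count filter 2 (11.9%), and the study's thresholds 2 cathepsins lower with 1 V-ATPase gene higher and 1 lower. Without each library in turn, edgeR gave 0 to 4 cathepsins higher and 0 to 2 lower, 0 to 1 LAMP genes higher, 0 to 8 V-ATPase genes higher and 0 to 1 lower, and 0 to 32 other lysosomal genes higher and 0 to 3 lower, in fits that called 0% to 18.3% of all genes higher and 0% to 12.8% lower. The medians ranged from -0.90 to -0.21 for cathepsins and from -0.66 to 0.19 for LAMP genes, where Lamp3 entered the test without any 1 rebamipide library. For V-ATPase genes the median ranged from 0.096 to 0.245 with edgeR and from 0.029 to 0.155 with DESeq2. The same subsets with DESeq2 gave 1 to 7 cathepsins lower, 0 to 1 LAMP genes higher and lower, and 1 to 9 V-ATPase genes higher and 1 to 6 lower, with 11.9% to 22.1% of all genes higher and 9.0% to 25.9% lower. DESeq2 without the first rebamipide library gave 7 cathepsins lower and medians of -1.22 for cathepsins and -0.38 for LAMP genes.

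The replicate numbers were not taken as pairs in the main fit. Same-numbered libraries deviated from their group means with correlations of -0.002, -0.04 and 0.013. Libraries with different numbers gave -0.319 to 0.385, so with 3 per group this cannot exclude a pairing. With the replicate block, 2 cathepsins were higher and 1 was lower, and 0 V-ATPase genes were higher, with 5 at an unadjusted p under 0.05 (edgeR, 18.5% of all genes), against 9.63% of all genes higher and 5.75% lower. As shares of counts not divided by length, Atp6v0d2 differed by -2.15 and Atp6v1g2 by 2.77 percentage points. The cause of these changes was not tested. Depth limited the description of 8 genes with at most 3 counts in each library.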
